A study of Homo sapiens with 4 samples.

Results

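Insulin-like growth factors (IGFs) are small secreted hormones that drive growth and survival through the receptor tyrosine kinase IGF1R. Outside the cell they are held by a family of secreted binding proteins (IGFBPs), which keep the ligand from its receptor or release it when proteases cut them, and some of which also bind integrins, heparan sulfate or matrix. IGF2R, the cation-independent mannose 6-phosphate receptor, carries lysosomal enzymes and removes IGF2 by endocytosis without a kinase signal.

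The 10 genes described here are the binding proteins IGFBP1 to IGFBP7, the ligands IGF1 and IGF2, and IGF2R. They were taken by symbol, and each matched 1 of the 56306 gene rows of the table. Their levels were measured by bulk RNAseq in MV3, an established line of highly metastatic human melanoma that carried an H2B-GFP nuclear label in both zones. Spheroids of 50000 cells had been embedded in collagen I, and punches of 1 mm (core) and then 3 mm (invasion zone around it) were made on day 2, for 2 libraries per zone (replicates 1 and 2). No drug or other agent was given. The core samples may hold some invading cells, since a punch does not part the zones along its own axis. All libraries came from 1 cell line, and the labels do not say whether the replicates were separate cultures, so p-values measure the spread between these libraries only.

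Library totals were 36363358 (core) and 37591782 (invasion zone) counts for replicate 1 and 14983135 and 11789243 counts for replicate 2, so low genes are less precise in replicate 2. Levels are given as CPM, the count relative to the library total, after TMM scaling (the trimmed mean of M values). Of the melanocyte lineage markers, 6 of 9 were under 1 CPM in every library and SOX10 and TYR had no count, whereas the 6 markers of the dedifferentiated melanoma state summed to 1380 and 1470 CPM in the core against 2160 and 2060 CPM in the invasion zone. The higher sum was mostly AXL and NT5E, while WNT5A of the same list was lower, at 179.8 and 81.2 CPM in the core against 54.0 and 17.9 CPM in the invasion zone, and NGFR had at most 2 counts. Of the lineage markers PAX3 was the one well detected, at 30.9 to 36.4 CPM. Epithelial (4 of 4) and leukocyte (3 of 3) markers were under 1 CPM in every library. The fibroblast list summed to 95.3 and 58.2 CPM in the core against 38.1 and 13.6 CPM in the invasion zone, nearly all of it PDGFRA with DCN and LUM at 0, and the endothelial list summed to 18.1, 7.62, 5.33 and 0.925 CPM in the same order, nearly all of it PECAM1 with KDR at 0. These sums moved with the zone as the binding proteins did, and their part in the results was not tested. In bulk RNA, fewer cells expressing a gene and less RNA per cell cannot be told apart.

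The abundant binding proteins of MV3 were IGFBP7, IGFBP6 and IGFBP4. All of them, with IGFBP3 and IGFBP5, had a lower level in both invasion zone libraries than in both core libraries, and the size of the difference varied from 1.61-fold for IGFBP6 to 5.15-fold for IGFBP5. IGF1 and IGFBP1 were hardly detected in either zone and IGF2 stayed under 1 CPM. The plot of levels by library shows the 10 genes side by side.

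**Figure D1:**
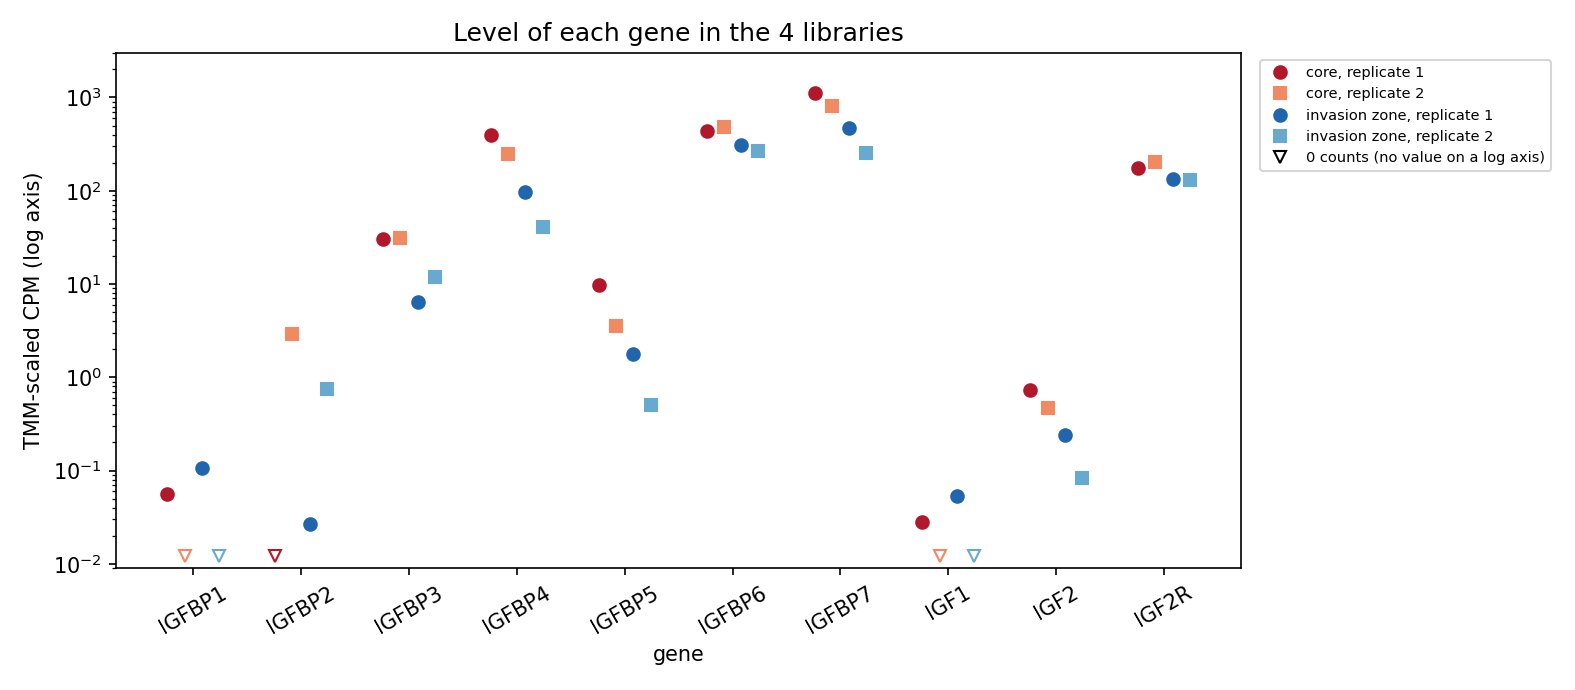
Level of the 10 genes in each library, in TMM-scaled CPM on a log axis, with core libraries in red tones, invasion zone libraries in blue tones, circles for replicate 1 and squares for replicate 2; open triangles mark libraries with 0 counts. IGFBP3, IGFBP4, IGFBP5, IGFBP6, IGFBP7, IGF2 and IGF2R have both invasion zone points below both core points, whereas IGFBP2 is split by replicate.

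To compare levels between genes, CPM was divided by the summed exon length of each gene in kilobases (kb). In the core the order was IGFBP7 (500 ± 115 CPM per kb, SD, n = 2), IGFBP6 (343 ± 20.8), IGFBP4 (145 ± 47.9), IGF2R (8.44 ± 0.858), IGFBP3 (6.75 ± 0.155), IGFBP5 (1.03 ± 0.687), IGFBP2 (0.307 ± 0.435), IGF2 (0.0832 ± 0.0259), IGFBP1 (0.017 ± 0.024) and IGF1 (0.00172 ± 0.00243). The libraries of IGFBP5 and IGFBP2 overlapped, as did those of IGFBP2 and IGF2 and those of IGFBP1 and IGF1, and the other neighbours did not overlap. In the invasion zone IGFBP6 (213 ± 21.3 CPM per kb) had the highest mean ahead of IGFBP7 (188 ± 81.5), but IGFBP7 spanned 130 to 246 CPM per kb around the 198 to 228 of IGFBP6, so this order is within the spread. IGFBP4 (31.4 ± 17.9), IGF2R (5.91 ± 0.109) and IGFBP3 (2.00 ± 0.836) followed without overlap, then IGFBP5 (0.175 ± 0.137), IGFBP2 (0.0826 ± 0.109), IGFBP1 (0.0325 ± 0.0459), IGF2 (0.0227 ± 0.0154) and IGF1 (0.00328 ± 0.00464). Among these 5, each of the neighbours IGFBP5 and IGFBP2, IGFBP2 and IGFBP1, and IGFBP1 and IGF2 overlapped. Divided by the longest transcript instead, IGFBP3 had 11.7 CPM per kb in the core and 3.48 in the invasion zone, over 1.5 times the values above. By that length IGFBP7 (254.3 CPM per kb) had a higher mean than IGFBP6 (243.4) in the invasion zone, so their order there depends on the length used.

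The promoters of 3 genes are shown, IGFBP4 and IGFBP3 with large zone differences and IGF2R with the smallest of the 8 genes tested. IGFBP5 and IGFBP2, with larger log2 fold changes than IGFBP4 (-2.37 and -2.25 against -2.20), are not shown. No annotated exon reaches into the 3 windows shown. Each sequence holds the 250 bases before the RefSeq start site (RefSeq, GRCh38.p14), 5′ to 3′ on the gene's strand, with capitals on the matches to 3 motifs on either strand. The TATA box was searched as TATAAA, the GC box of the Sp1 family as GGGCGG. The core of the hypoxia response element was searched as ACGTG and in its variant form as GCGTG. IGFBP4 lies on chr17:40443200-40443449 (plus strand), IGFBP3 on chr7:45921273-45921522 (minus strand) and IGF2R on chr6:159968832-159969081 (plus strand).
IGFBP4: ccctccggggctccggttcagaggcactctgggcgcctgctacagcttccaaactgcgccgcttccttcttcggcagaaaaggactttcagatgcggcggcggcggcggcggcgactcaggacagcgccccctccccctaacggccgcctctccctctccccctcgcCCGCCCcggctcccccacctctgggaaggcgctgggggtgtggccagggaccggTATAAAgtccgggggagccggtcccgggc
IGFBP3: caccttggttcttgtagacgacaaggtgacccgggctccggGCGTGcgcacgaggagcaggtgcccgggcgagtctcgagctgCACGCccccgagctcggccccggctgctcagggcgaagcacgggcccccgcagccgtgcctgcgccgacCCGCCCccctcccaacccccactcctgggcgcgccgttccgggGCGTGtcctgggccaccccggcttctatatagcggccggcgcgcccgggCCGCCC
IGF2R: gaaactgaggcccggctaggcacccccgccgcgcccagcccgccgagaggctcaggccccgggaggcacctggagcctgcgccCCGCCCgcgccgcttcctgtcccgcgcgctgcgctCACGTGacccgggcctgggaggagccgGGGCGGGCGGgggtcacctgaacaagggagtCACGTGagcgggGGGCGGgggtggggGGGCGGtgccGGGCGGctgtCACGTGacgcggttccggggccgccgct

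The IGFBP4 window held a TATA box 29 bases before the start and 1 GC box, and no hypoxia response core. The IGFBP3 window held 3 hypoxia response cores and 2 GC boxes. The IGF2R window, at 79.2% GC, held 3 sites for the hypoxia response core, each inside the palindrome CACGTG (the E-box, which matches ACGTG on both strands), and 5 separate GC-box sites, 1 of which is 2 overlapping matches. Of the 35116 promoter windows of this length in the same table, 10.7% held TATAAA, 42.6% GGGCGG, 43.2% ACGTG or GCGTG, 6.3% CACGTG and 6.6% an AP-1 site (searched as TGANTCA), which was in none of the members' windows. Windows for 7 of the 10 genes were present in the table, and those of IGFBP5 and of IGF1 held none of these letters. A match describes the sequence only, and these windows do not show which factor is bound.

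Zones were compared by edgeR's quasi-likelihood test across 15529 genes that passed a filter of 10 counts at the median library size, a level of 0.39 CPM, in at least 2 libraries. Calls needed a change of at least 2-fold with adjusted p below 0.05. Of the 10 genes, 8 passed the filter, and IGF1 and IGFBP1 did not. IGF2 passed through its core libraries alone, so its difference was bound to be in that direction and supports nothing about the group. The test called 0 of the 8 genes, against 0.00% of all genes tested as lower and 0.00% as higher. With the raw p below 0.05 in place of the adjusted one, 5 of the 8 were lower and 0 higher, against 6.41% and 3.19% of all genes tested. DESeq2 with adjusted p called IGFBP3, IGFBP4, IGFBP5 and IGFBP7 lower, against 3.54% of all genes as lower and 2.20% as higher. With the replicate number as a block, edgeR called the same 4 binding proteins and IGF2 lower and 0 of the 8 higher. Over all genes tested, the block called 7.40% lower and 3.79% higher. The block leaves 1 residual degree of freedom, against 2 without it, so its SE and p-values lean on spread pooled across genes. For IGFBP4 the log2 differences within replicates were -2.02 and -2.57, beside a block SE of 0.13. The zones were separate, with the invasion zone lower, for 7 of the 8 genes and with it higher for 0, against 30.3% and 28.1% of all genes tested. The median log2 fold change of the 8 genes was -1.73 and that of all genes tested -0.01. Leaving out IGF2, 4 of 7 genes were lower by the raw p, 4 of 7 were called lower with the block, 6 of 7 were separate and the median was -1.81.

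**Figure D2:**
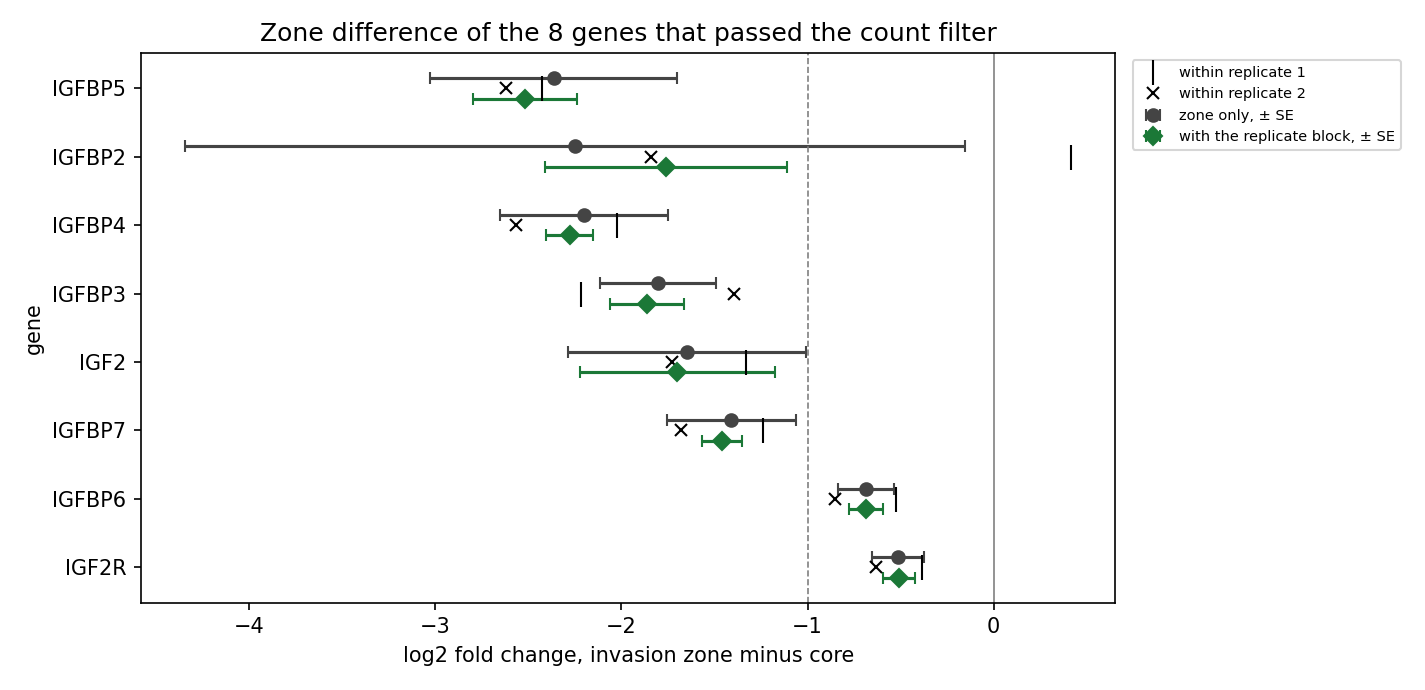
Log2 fold change of the invasion zone against the core for the 8 genes tested, ± SE, from the test on zone only (grey circles) and with the replicate block (green diamonds), with the differences within replicate 1 (bars) and within replicate 2 (crosses); the dashed line marks a 2-fold decrease. IGFBP5, IGFBP4, IGFBP3, IGF2 and IGFBP7 lie left of the dashed line within both replicates, IGFBP6 and IGF2R lie between it and 0, and IGFBP2 lies on opposite sides of 0 in the 2 replicates.

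IGFBP7 (ENSG00000163453, chromosome 4, 57030773 to 57110385 of GRCh38, minus strand) binds IGFs only weakly and is known as a secreted basement-membrane protein linked to growth arrest in melanocytic cells. It had 1121 and 807 CPM in the core libraries of replicates 1 and 2 and 474 and 252 CPM in those of the invasion zone. Both invasion zone values were under both core values, with a log2 fold change of -1.41 (SE 0.34, adjusted p = 0.118), or 2.66-fold lower. Within replicates it was 2.37-fold lower (replicate 1, exact 95% interval from counting error alone 2.32 to 2.41) and 3.21-fold lower (replicate 2, 3.08 to 3.34). With the replicate block its log2 fold change was -1.46 (SE 0.11, adjusted p = 0.000107).

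IGFBP4 (ENSG00000141753, chromosome 17, 40443450 to 40457725, plus strand) inhibits IGF action and is the main substrate of the protease PAPPA. It had 395 and 245 CPM in the core against 97.0 and 41.3 CPM in the invasion zone, without overlap. The log2 fold change was -2.20 (SE 0.45, adjusted p = 0.112), a 4.59-fold lower level, and only 1.28% of all genes tested had a lower value. Within replicates it was 4.07-fold and 5.94-fold lower, the same direction in both. The counting intervals (3.92 to 4.22 and 5.41 to 6.54) did not meet. They leave out the spread between libraries, so they cannot show whether the zone difference itself varied in size. The block gave -2.28 (SE 0.13, adjusted p = 7.44e-05).

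IGFBP3 (ENSG00000146674, chromosome 7, 45912245 to 45921874, minus strand), the main carrier of IGFs in serum, is a known target of p53 and of hypoxia. Its core libraries were alike, at 30.3 and 31.3 CPM, and its invasion zone libraries had 6.45 and 11.9 CPM. The level was 3.49-fold lower (log2 fold change -1.81, SE 0.31, adjusted p = 0.112), with 4.70-fold in replicate 1 and 2.64-fold in replicate 2. IGFBP3 was the one called binding protein with the larger fold in replicate 1, and with the block it had adjusted p = 0.00031.

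IGFBP5 (ENSG00000115461, chromosome 2, 216672105 to 216695549, minus strand) binds matrix and heparin and can hold or release IGF there. It was a low gene, with 9.80 and 3.51 CPM in the core against 1.76 and 0.504 CPM in the invasion zone, the last resting on 6 counts. The log2 fold change of -2.37 (SE 0.66, adjusted p = 0.13) was the lowest of the 8 genes, 5.57-fold within replicate 1 and 6.96-fold within replicate 2 (counting interval 2.99 to 19.8). Its level differed 2-fold or more between replicates of a zone, and the block gave adjusted p = 0.000354.

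IGFBP6 (ENSG00000167779, chromosome 12, 53097436 to 53102345, plus strand) prefers IGF2 over IGF1. It had 442 and 481 CPM in the core against 307 and 266 CPM in the invasion zone, without overlap. The difference was smaller than 2-fold, at 1.61-fold (log2 fold change -0.69, SE 0.15, adjusted p = 0.112), and 14.9% of all genes tested had a lower value. With the block it had adjusted p = 0.000743 and stayed short of a 2-fold change, so it was not called in either fit.

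IGFBP2 (ENSG00000115457, chromosome 2, 216632828 to 216664436, plus strand), which carries an integrin-binding motif, lies next to IGFBP5 in opposite orientation. It was split by replicate. Replicate 1 gave 0 counts in the core, which allows up to 0.0825 CPM, and 1 count in the invasion zone. Replicate 2 gave 44 and 9 counts, or 2.92 and 0.757 CPM, a 3.85-fold lower level in the invasion zone (counting interval 1.86 to 8.98). The zones overlapped, and the test found no difference beyond the spread (log2 fold change -2.25, SE 2.09, adjusted p = 0.537, and with the block adjusted p = 0.0577). IGFBP1 (ENSG00000146678, chromosome 7, 45888360 to 45893660), the liver-type binding protein, had 2 and 4 counts in core and invasion zone of replicate 1 and 0 in both libraries of replicate 2.

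Of the ligands, IGF1 (ENSG00000017427, chromosome 12, 102395874 to 102481744) had 1 and 2 counts in core and invasion zone of replicate 1 and none in replicate 2, where 0 counts allow up to 0.2 CPM (core) or 0.254 CPM (invasion zone). Most of its exonic sequence, 6693 of 8115 bases, is shared with a gene on the opposite strand. IGF2 (ENSG00000167244, chromosome 11, 2129112 to 2158391) had 26 and 7 counts in the core and 9 and 1 in the invasion zone, or 0.726 and 0.464 against 0.24 and 0.0841 CPM. Both zones were low and did not overlap (log2 fold change -1.65, SE 0.64, adjusted p = 0.184, and adjusted p = 0.0317 with the block). The counting interval of the ratio was 1.37 to 7.34 in replicate 1 and 0.709 to 249 in replicate 2, so that the difference was beyond counting error in replicate 1 alone. Same-strand genes overlap 3084 of the 7146 exonic bases of IGF2, among them INS-IGF2 at 0 counts in every library, and reads there can be lost as ambiguous.

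IGF2R (ENSG00000197081, chromosome 6, 159969082 to 160113507, plus strand) had 177 and 205 CPM in the core against 135 and 132 CPM in the invasion zone. The zones did not overlap, and the level was 1.43-fold lower in the invasion zone (log2 fold change -0.51, SE 0.14, adjusted p = 0.127). Within replicates the difference was 1.31-fold and 1.55-fold, and with the block it had adjusted p = 0.00226 but less than a 2-fold change. M6PR, which encodes the other, cation-dependent mannose 6-phosphate receptor, had 107 and 141 CPM in the core against 115 and 148 CPM in the invasion zone (log2 fold change 0.08, SE 0.20). M6PR shares 1107 of its 3585 exonic bases with a gene on the opposite strand.

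Because the binding proteins differed by unequal amounts, their make-up was compared next. The summed level of the 7 binding proteins was 1096 and 895 CPM per kb in the core and 519 and 350 in the invasion zone, 2.11-fold lower within replicate 1 and 2.56-fold lower within replicate 2. IGFBP6 made up 29.9% and 39.9% of this sum in the core and 43.9% and 56.6% in the invasion zone. IGFBP4 made up 16.3% and 12.4% in the core and 8.48% and 5.35% in the invasion zone. IGFBP7 made up 53.0% and 46.7% in the core and 47.3% and 37.3% in the invasion zone, and these ranges overlapped. The shares of IGFBP6 and IGFBP4 did not overlap between zones, and with 2 libraries against 2 an exact two-sided permutation test cannot give a p under 0.333. The ratio of IGFBP4 to IGFBP6, which does not depend on the scaling of the libraries, was 0.546 and 0.311 per kb in the core and 0.193 and 0.0946 in the invasion zone. The ratio of IGF2R to IGFBP6 was 0.0239 and 0.0253 in the core and 0.0263 and 0.0295 in the invasion zone.

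**Figure D3:**
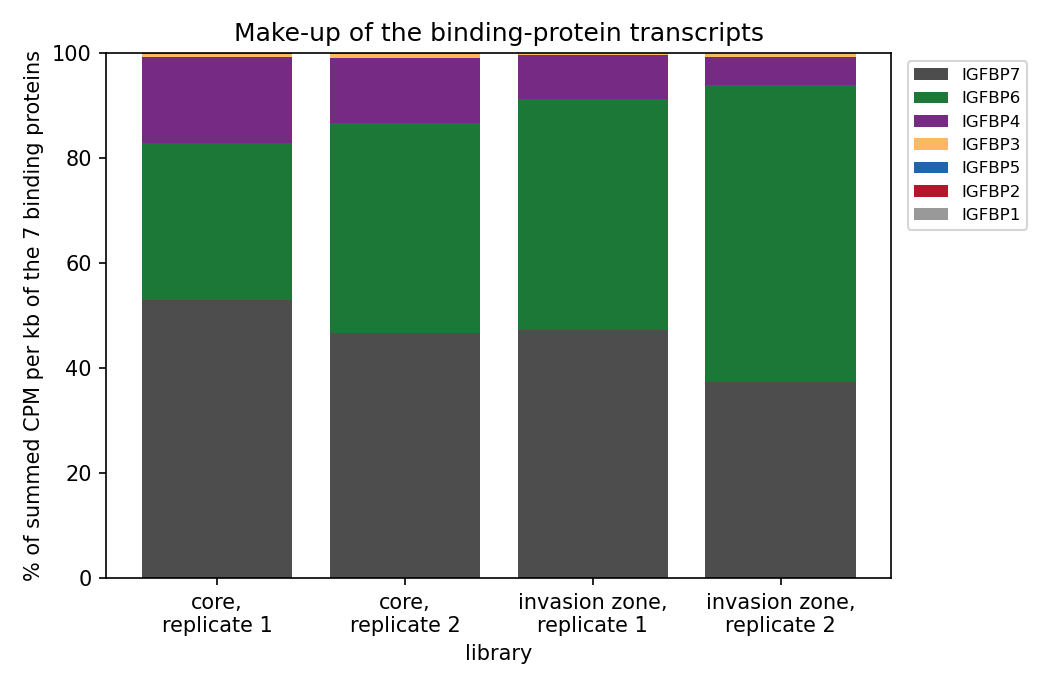
Share of each binding protein in the summed CPM per kb of the 7 binding proteins, in percent, as stacked bars for the 4 libraries. IGFBP6 (green) takes 29.9% and 39.9% in the core and 43.9% and 56.6% in the invasion zone, while IGFBP4 (purple) takes 16.3% and 12.4% in the core and 8.48% and 5.35% in the invasion zone.

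The profile of IGFBP7, the most abundant binding protein, over the 4 libraries was most like those of COL5A2, CREBRF and LTBP3, by the root mean square difference of centred log2 CPM (0.0278, 0.0312 and 0.0325). A further look at all 15528 other genes tested found 47 within 0.1 of IGFBP7, so over 4 libraries this likeness sets few genes apart.

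The other genes of the pathway were taken from a list of 49 genes by role, of which 36 passed the filter. The edgeR test called 0 of them (5 lower and 3 higher by the raw p, and 4 lower and 3 higher by DESeq2). With the replicate block 6 of 36 were called lower and 3 higher, where 7.40% and 3.79% of all genes tested were. The raw p and DESeq2 shares over all genes are those given above for the members. The median log2 fold change of the 36 was -0.10. H19, among those called lower with the block, passed the filter through its core libraries alone. Its difference was bound to be in that direction and supports nothing about the pathway. ADAM28, WISP1 and WISP2, also called lower, were over the filter level in 2 core libraries but only 1 invasion zone library. Apart from these and H19, the genes called lower were HTRA1 and IRS2. The count of 6 thus leans on genes near the filter level in the invasion zone. Of the 9 genes called with the block, 5 were listed as secreted proteins with a domain like that of the binding proteins. Another 2 were listed as proteases that cut binding proteins, as the plot by role shows. Each gene was counted under a single role, HTRA1 as a protease and HTRA3 and HTRA4 under the domain.

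**Figure D4:**
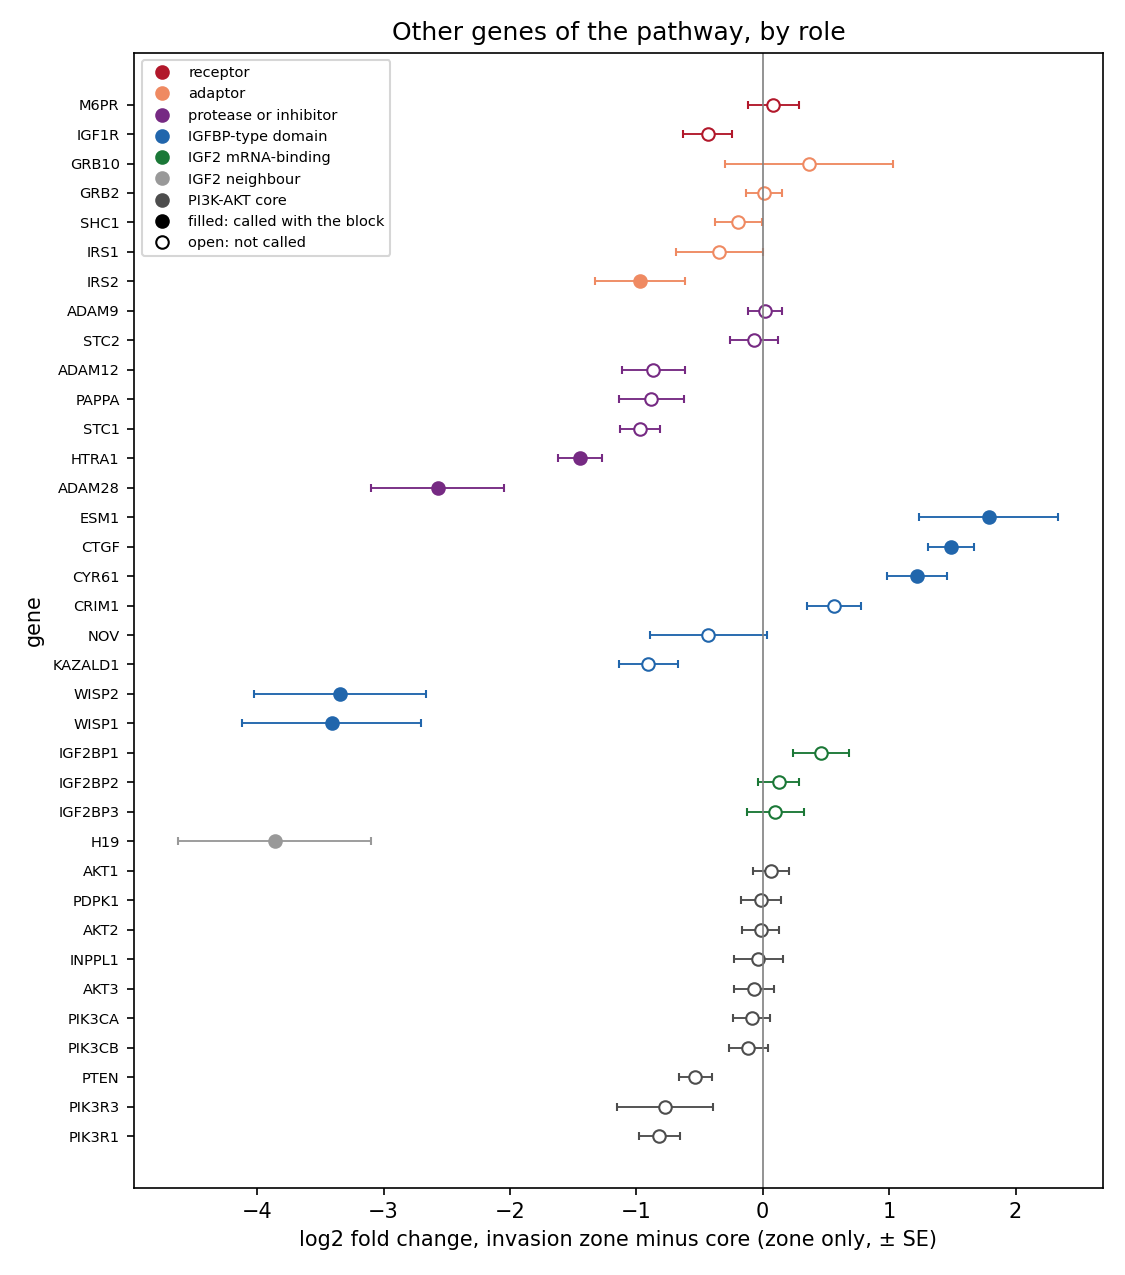
Log2 fold change of the invasion zone against the core, ± SE, from the test on zone only, for the 36 other pathway genes tested, coloured by role; filled points were called with the replicate block. CYR61, CTGF and ESM1 lie above 1 and H19, WISP1, WISP2, ADAM28 and HTRA1 below -1, whereas the AKT genes lie near 0.

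The receptor tyrosine kinase IGF1R had 82.1 and 69.4 CPM in the core against 63.5 and 48.3 CPM in the invasion zone, without overlap. Its log2 fold change was -0.44 (SE 0.19, adjusted p = 0.223, and adjusted p = 0.00574 with the block, under 2-fold). The insulin receptor gene INSR was nearly absent from these libraries, with 1 and 2 counts in the core and 8 and 2 in the invasion zone, and did not pass the filter. Among the proteins that bind these receptors inside the cell (IRS1, IRS2, SHC1, GRB2 and GRB10), 1 of 5 tested was called with the block. This was IRS2, called lower, where 7.40% of all genes tested were. IRS2 had 14.0 and 9.27 CPM in the core against 7.30 and 4.20 CPM in the invasion zone. Its log2 fold change was -0.97 (SE 0.35, adjusted p = 0.171). With the block it had adjusted p = 0.00323 and was just past the 2-fold limit. Of the PI3K-AKT core 0 of 10 tested were called in either fit, with a median log2 fold change of -0.08, a count near the 7.40% and 3.79% of all genes tested.

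Of the proteases that cut binding proteins and their inhibitors, 7 of 8 were tested, and 2 were called lower with the block, where 7.40% of all genes tested were. HTRA1, a secreted serine protease that cleaves binding proteins and matrix, had 80.2 and 67.2 CPM in the core against 29.1 and 25.0 CPM in the invasion zone, which is 2.72-fold lower (log2 fold change -1.45, SE 0.17, adjusted p = 0.112, and 9e-05 with the block). ADAM28, a membrane protease, was low at 2.15 and 1.79 CPM in the core and lower at 0.24 and 0.588 CPM in the invasion zone. Its log2 fold change was -2.57 (SE 0.52, adjusted p = 0.112, and adjusted p = 0.00208 with the block). ADAM28 was over the filter level in 2 core libraries but only 1 invasion zone library, so its passing leaned on the core. PAPPA, which releases IGF by cutting IGFBP4, had 51.7 and 39.6 CPM in the core against 29.7 and 19.4 CPM in the invasion zone (log2 fold change -0.88, SE 0.26, adjusted p = 0.137), with adjusted p = 0.000583 and less than 2-fold with the block. PAPPA shares 2450 of its 11585 exonic bases with a gene on the opposite strand. IGFBP4 and PAPPA both had lower values in both invasion zone libraries, IGFBP4 by 4.59-fold and PAPPA by 1.84-fold. The inhibitor STC1 was lower too, with 302 and 285 CPM in the core against 164 and 135 CPM in the invasion zone, but under 2-fold. The inhibitor STC2 overlapped between zones (log2 fold change -0.07, SE 0.19). In this group 5 of the 7 tested were separate with the invasion zone lower and 0 with it higher, against 30.3% and 28.1% of all genes tested.

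The secreted proteins listed under an IGFBP-type N-terminal domain, a group that leaves out HTRA1, went both ways. With the block 3 of 8 tested were called higher and 2 lower, where 3.79% and 7.40% of all genes tested were. CYR61 (now CCN1), a matricellular protein and YAP target, had 236 and 333 CPM in the core against 576 and 751 CPM in the invasion zone (log2 fold change 1.22, SE 0.23, adjusted p = 0.112, and adjusted p = 7.99e-05 with the block). CTGF (CCN2), of the same family, had 75.6 and 93.1 CPM in the core against 212 and 261 CPM in the invasion zone (log2 fold change 1.49, SE 0.18, adjusted p = 0.112, and adjusted p = 6.73e-05 with the block). ESM1, an endothelial-type proteoglycan also made by tumor cells, had 19.2 and 51.5 CPM in the core against 79.3 and 163 CPM in the invasion zone (log2 fold change 1.79, SE 0.55, adjusted p = 0.143, and adjusted p = 7.94e-05 with the block). These genes were higher in both invasion zone libraries than in both core libraries, opposite to the binding proteins.

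WISP1 (CCN4) and WISP2 (CCN5), Wnt-induced members of that family, went the other way. WISP1 had 3.91 and 2.12 CPM in the core against 0.4 and 0 CPM in the invasion zone (log2 fold change -3.41, SE 0.71, adjusted p = 0.112, and adjusted p = 0.000622 with the block). WISP2 had 6.53 and 3.71 CPM in the core against 0.72 and 0 CPM in the invasion zone (log2 fold change -3.35, SE 0.68, adjusted p = 0.112, and adjusted p = 0.00025 with the block). Both rest on few counts in the invasion zone, 15 for WISP1 and 27 for WISP2, all in replicate 1. Each was over the filter level in 2 core libraries but only 1 invasion zone library, so their passing leaned on the core.

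H19, the imprinted noncoding gene beside IGF2, had 49 and 15 counts in the core and 4 and 0 in the invasion zone (log2 fold change -3.86, SE 0.76, adjusted p = 0.112, and adjusted p = 0.00119 with the block). Since H19 passed the filter through its core libraries alone, this direction was fixed in advance. IGF2 and H19 were both under 1.4 CPM in every library. The IGF2 mRNA-binding proteins IGF2BP1, IGF2BP2 and IGF2BP3 were all tested and none was called, with log2 fold changes of 0.46, 0.13 and 0.10.

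Without the block, leaving out any 1 library brought calls among the binding proteins and among all genes. Of all genes tested 0.724% were called lower without core replicate 1, 4.80% without core replicate 2, 6.48% without invasion zone replicate 1 and 1.57% without invasion zone replicate 2. IGFBP3 and IGFBP4 were then called in 4 of 4 cases, IGFBP5 in 3 of 4, all but the one without core replicate 1, and IGFBP7 in 2 of 4, those without core replicate 2 or invasion zone replicate 1. A fit without 1 library assumes that the lone library of its zone varies like the other zone. The log2 fold change ranged over these fits from -2.26 to -1.38 for IGFBP3, from -2.96 to -1.72 for IGFBP4, from -3.78 to -1.38 for IGFBP5 and from -1.94 to -1.03 for IGFBP7. Neither IGFBP2 nor IGF2 was called in any of the 3 such fits in which each was tested. The log2 fold change of IGFBP2 was -5.08 without invasion zone replicate 2, -3.69 with core replicate 1 left out and -0.45 with invasion zone replicate 1 left out. That of IGF2 ranged from -2.84, with invasion zone replicate 1 left out, to -1.39.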

How the data were processed

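Bulk RNAseq of 2 core and 2 invasion zone libraries was analysed from the deposited table of raw counts. To make these counts, the authors filtered out ribosomal reads (Bowtie), aligned what was left to hg38 (STAR) and counted reads per gene (HTSeq). Tool versions, the annotation release and whether counting used strand: not given in the sources used here. Complementary DNA was made with a low-input kit.

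From the 56306 rows, 2 repeated rows without counts were dropped. edgeR 4.0.16 in R 4.3.3 was used with filterByExpr (a minimum of 10 counts, scaled to the median library, in 2 or more libraries and 15 in total), TMM scaling and the quasi-likelihood test across all genes, with Benjamini-Hochberg adjustment. SE is the log2 fold change divided by the root of the F statistic. DESeq2 1.42.0 and limma 3.58.1 served as alternatives. Log2 differences within a replicate used a prior count of 2. Exon lengths, positions and overlaps came from GENCODE on GRCh38, which held 98.13% of the table's identifiers. The procedure was also run on simulated counts, with the same spread between libraries for every gene and changes placed in well-counted genes only. That setting differs from these data, so it does not show how the procedure performs on them. Figures were drawn with matplotlib 3.10.9.

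The protocol takes a core and its invasion zone from the same dissected gel, but the labels do not say that the replicate number marks it. Same-numbered libraries deviated together (r = 0.584 across 15529 genes, 2 pairs), so the replicate block is given beside the fit without it. With 2 libraries per zone the deviations of replicate 2 mirror those of replicate 1, so the 2 pairs give a single contrast. Replicate 1 also had the larger library total in both zones. Libraries of a zone were not duplicates (chi-square per degree of freedom 33.8 and 31.9). Intervals cover counting error only. Named pathway genes are those called in either fit, up to 6 in each direction, with IGF1R, INSR and PAPPA. M6PR, STC1, STC2, the marker genes, the adaptors and the IGF2 mRNA-binding proteins were named after their values were seen. Members and lists were chosen with earlier results of these data known.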

Additional observations from a re-analysis of the deposited data

How the results depend on the processing

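Without the block the test called 0 lower and 0 higher genes among all tested, the 10 genes and the 49 pathway genes, and these counts stayed at 0 with RLE or upper-quartile scaling, limma voom, a minimum of 10 counts in each of the libraries, the legacy quasi-likelihood form, no fold minimum and, an alternative chosen after seeing the data, thinning to the smallest library. With the replicate block there were 1149 lower and 588 higher genes over all, 5 of the 10 genes and 6 pathway genes lower, and 3 pathway genes higher. DESeq2 gave 549 and 341 over all, 4 of the 10 lower, and 4 and 3 pathway genes, and with the replicate block 757 and 429, 4, and 5 and 3. An unadjusted p gave 995 and 495 over all, 5, and 5 and 3. Without a low-count filter there were 191 and 81 over all, 2, and 4 and 2, over 32869 genes tested. The cause of these moves was not tested. Leaving out 1 library at a time, the counts ranged from 108 to 970 lower and 8 to 693 higher over all, from 2 to 4 of the 10 lower, and from 1 to 9 lower and 1 to 3 higher pathway genes. The lowest counts came without core replicate 1. No member was called higher in any of these fits. The 8 genes tested kept a lower value in the invasion zone wherever they had one, except IGFBP2, which was 0.22 with limma voom. Levels per kb depend on the length used: with the longest transcript IGFBP7 was at 675.8 CPM per kb in the core, and IGFBP3 moved by more, to 11.7 in the core and 3.48 in the invasion zone. In the invasion zone IGFBP7 was then at 254.3 and IGFBP6 at 243.4 CPM per kb, the reverse of their order by summed exon length. IGFBP1, IGF1 and IGF2 rest on few counts in every library.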
